A study of Mus musculus with 16 samples.

Results

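The genes described here are 10 receptor chains through which T cells sense interleukins of the IL-2, IL-15, IL-7 and IL-12 families or, for Il18r1, IL-18. They are Il2ra, Il2rb, Il2rg, Il15ra, Il7r, Il21r, Il4ra, Il12rb1, Il12rb2 and Il18r1. They were taken by gene symbol from a table of 55335 gene identifiers. The rule uses no measured value, but the set was drawn up with earlier results of these data known. The data are RNA sequencing counts, after poly-A selection, from bulk CD8 T cells enriched from the spleens of C57BL/6 mice, either wild type (wt) or with both copies of Batf3 deleted (Batf3.ko, here ko). Both genotypes were cultured in medium with IL-15 (50 ng/ml), plate-bound anti-CD3e (1 µg/ml) and anti-CD28 (1 µg/ml) for 48 h or 72 h. No library came from unstimulated cells or from cells without IL-15. The 4 groups of wt 48 h, ko 48 h, wt 72 h and ko 72 h held 4 libraries each. The series text calls these libraries technical replicates and gives no number of mice, so the p-values below measure the spread between libraries and not between animals. Batf3 encodes a transcription factor of the AP-1 group. Mice without it also lack the cross-presenting dendritic cells that depend on it, so the ko cells came from a host that differs in more than its T cells.

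Cytokine receptors of this group work as pairs or trios of chains. The common gamma chain, encoded by Il2rg, joins Il2rb to form the signalling core of both the IL-2 and the IL-15 receptor, and it also joins Il7r, Il21r or Il4ra. Il2ra and Il15ra add affinity for IL-2 and IL-15, and Il15ra can also present IL-15 to a neighbouring cell. These receptors signal through the kinases JAK1 and JAK3 to STAT factors, STAT5 for IL-2, IL-15 and IL-7. Il12rb1 and Il12rb2 form the IL-12 receptor, which uses JAK2, TYK2 and STAT4 and drives interferon gamma production. Il18r1 binds IL-18 and, with its partner Il18rap, signals through MyD88 to NF-kappaB. In CD8 T cells Il2ra marks recent activation, and Il7r is lost on activated cells and carried by cells that become memory cells.

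Library totals ran from 29375818 to 39241169 counts, so a count of 0 leaves room for a level of up to 3 counts, which is 0.0765 to 0.102 CPM (counts scaled to a common total). Batf3 averaged 80.7 ± 5.86 CPM in wt cells at 48 h and 30.9 ± 2.65 CPM at 72 h (SD, n = 4 each). In ko cells it had 2, 3, 7 and 6 counts at 48 h and 0, 0, 11 and 0 counts at 72 h. Of the lists of markers, that for CD8 T cells summed to between 1777 and 2615 CPM over the 16 libraries. In the CD4 T cell list Cd4 reached at most 0.896 CPM, while Zbtb7b reached 59.95 CPM. The regulatory T cell list, which also holds Il2ra, summed to between 1862 and 2528 CPM, with Ctla4 at up to 1448 CPM, Ikzf2 at up to 49.8 CPM and Foxp3 at no more than 9 counts. In bulk samples, fewer cells of a type and less RNA per cell cannot be told apart. The libraries ko 48 h replicate 4 and wt 72 h replicate 4 lay farthest from their groups (root mean square deviation 0.187 and 0.168 on the log2 scale, against 0.0852 to 0.130 for the others). Across 9284 genes the ko-to-wt differences followed exon length, with a Spearman correlation of -0.398 at 48 h and -0.348 at 72 h. Offsets that take out this trend library by library (exon length offsets) are among the alternatives given beside the results they change. Levels below are CPM from library totals, while fold changes and tests use TMM scaling in edgeR. At 72 h scaling by totals alone moved the median ko-to-wt difference of all 15197 genes tested from -0.02 to -0.14 on the log2 scale, so ko CPM at 72 h read lower than the fitted differences.

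Promoter sequences are shown first, since STAT and AP-1 factors lie downstream of these receptors and of the T cell receptor. RefSeq (GRCm38.p6) gave 11 promoters for 8 of the 10 genes, all except Il2rb and Il12rb1. The 250 bases before each start were searched on both strands for TTCNNNGAA, the core of STAT sites, and TGANTCA, the core of AP-1 sites. No match found overlapped another. Below are, as examples of a gene that rose and a gene that fell with time and of windows free of the gene's own exons, the window of Il12rb2 (chr6:67376189-67376438, minus strand), which holds a STAT motif, and that of Il2ra (chr2:11642542-11642791, plus strand), which holds neither. The window of Il2rg, which rose with time too and is also free of its own exons, holds neither motif and is not shown. The windows of Il12rb2 and Il2ra are written 5′ to 3′ with the motif in capitals.
Il12rb2: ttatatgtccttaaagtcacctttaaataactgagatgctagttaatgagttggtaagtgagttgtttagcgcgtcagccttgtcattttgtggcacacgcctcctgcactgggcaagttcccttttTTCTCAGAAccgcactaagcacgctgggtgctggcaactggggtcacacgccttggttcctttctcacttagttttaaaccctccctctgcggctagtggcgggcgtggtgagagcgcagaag
Il2ra: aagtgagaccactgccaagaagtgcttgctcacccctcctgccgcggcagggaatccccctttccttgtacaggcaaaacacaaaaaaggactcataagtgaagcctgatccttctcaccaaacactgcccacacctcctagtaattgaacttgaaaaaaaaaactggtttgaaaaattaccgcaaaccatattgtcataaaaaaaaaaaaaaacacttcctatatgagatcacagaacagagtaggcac
All matches, with that of Il12rb2 repeated, are given with 10 bases on each side, the motif again in capitals. Il18r1 had its pair in the promoter farthest downstream of its 3, and Il15ra its AP-1 motif in the second of its 2.
Il7r, STAT motif 142 to 134 bases before the start: gttcaggagcTTCAGGGAAtaccaagatg
Il12rb2, STAT motif 123 to 115 bases before the start: gttcccttttTTCTCAGAAccgcactaag
Il18r1, STAT motif 219 to 211 bases before the start: tcggggttagTTCTGGGAActgtggagct
Il18r1, STAT motif 152 to 144 bases before the start: agtacaggtcTTCCCAGAActgaaagctt
Il15ra, AP-1 motif 30 to 24 bases before the start: gtggggatgcTGAGTCAcagatctgtc
The STAT motif was in 3 of the 11 windows (27.3%) and in 7.02% of all 32851 promoter windows of that length. The AP-1 motif was in 1 of 11 (9.09%) and in 6.75% of all. The composite of an AP-1 motif and an IRF site, which contains the AP-1 motif, was in 0 of 11 and in 0.1% of all. The 11 windows are not separate, since the first 2 of Il18r1 overlap. Those with a match in Il7r, Il18r1 and Il15ra also hold 86, 91 and 117 bases of the gene's own exons in the GENCODE annotation. A match describes these letters and says nothing of whether a factor binds there.

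All 10 genes passed the filter on low counts, so every one was tested in every comparison. Between genes, levels are compared as CPM per kilobase of exon (GENCODE M21, GRCm38). In wt cells at 48 h the highest were the beta chain Il2rb, at 245.2 ± 10.6, and the alpha chain Il2ra, at 216.1 ± 3.06 (SD, n = 4 each). Il12rb2 followed at 60.7, Il21r at 44.0, Il4ra at 40.7, Il2rg at 36.9, Il12rb1 at 20.6, Il7r at 9.81, Il18r1 at 6.16 and Il15ra at 2.53 CPM per kilobase. Each neighbouring pair in that order had separate ranges over the libraries except Il21r and Il4ra, which overlapped. The first 3 places and the last 2 were the same in all 4 groups. The common gamma chain stood below the beta chain it pairs with, at a per-kilobase ratio of Il2rb to Il2rg of 6.65 ± 0.288 in wt cells at 48 h (SD, n = 4). The level and place of Il2rg and this ratio are uncertain, since 728 of its 2387 exon bases are shared with Gm20489 on the same strand. The level and place of Il12rb2 are uncertain too, since 1519 of its 3794 exon bases are shared with Serbp1 on the opposite strand.

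**Figure D1:**
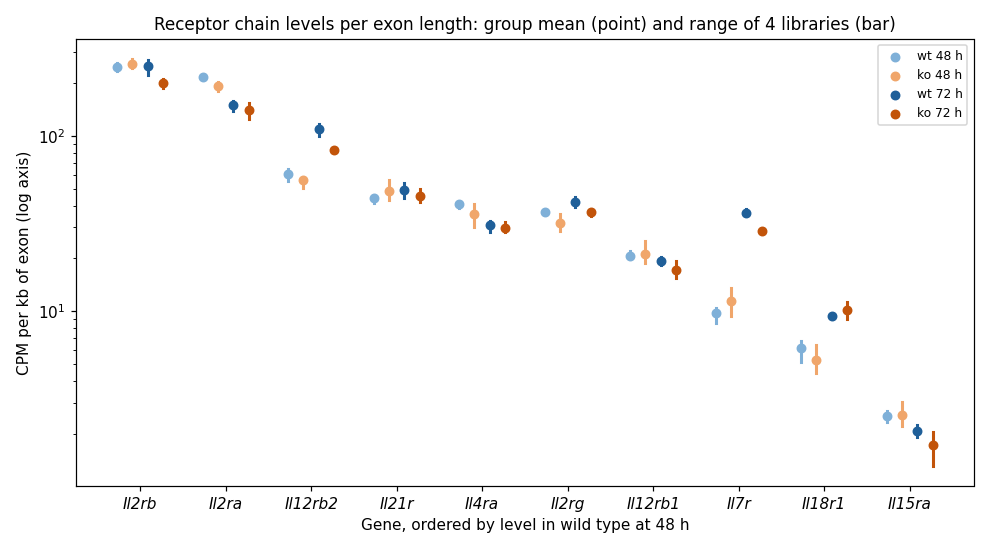
Level of each receptor gene as CPM per kilobase of exon on a log axis, with the mean of 4 libraries as a point and their range as a bar, for the 4 groups. Il2rb and Il2ra stand highest and Il15ra lowest in every group, and Il7r climbs from 9.81 to 36.5 in wt cells between 48 h and 72 h.

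Between 48 h and 72 h, Il7r moved from the eighth place to the sixth in wt cells, with 36.5 CPM per kilobase and a range apart from both neighbours. In ko cells at 72 h it was the seventh, at 28.6, and its range of 27.4 to 29.4 overlapped that of Il4ra, 28.1 to 32.3. Il4ra dropped from the fifth place in wt cells at 48 h, at 40.7, to the seventh at 72 h, at 31.0 CPM per kilobase. At 48 h in ko cells the ranges of Il12rb2 and Il21r overlapped, as did those of Il4ra and Il2rg. At 72 h in wt cells those of Il21r and Il2rg did.

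**Figure D2:**
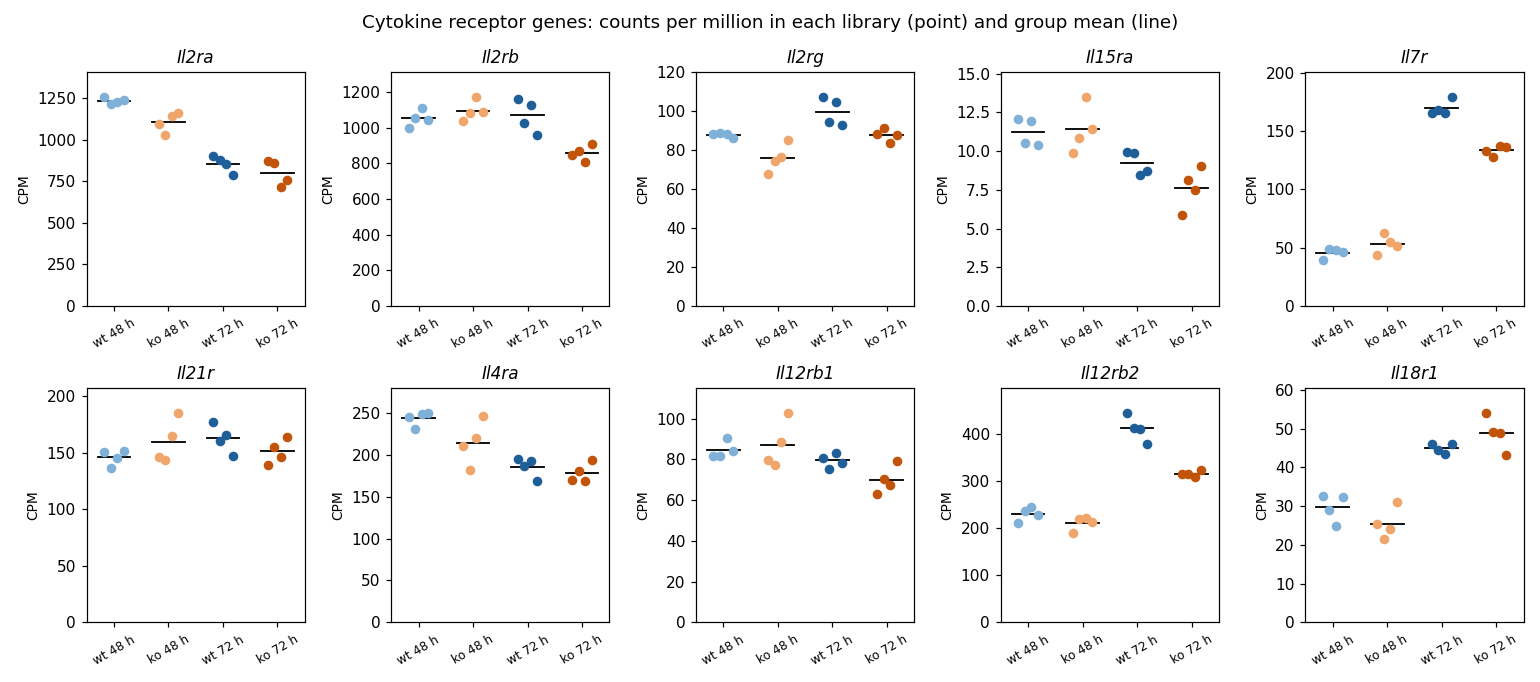
CPM of each receptor gene in each library (points, 4 per group) with the group mean as a line, on axes that start at 0. Il7r, Il12rb2 and Il18r1 are higher at 72 h than at 48 h in every library of both genotypes, and at 72 h the ko libraries of Il7r and Il12rb2 lie below all wt libraries.

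At 48 h none of the 10 receptor genes passed the test between ko and wt cells (edgeR quasi-likelihood test, adjusted p below 0.05), where 7.07% of all genes tested did, 4.41% higher and 2.66% lower. At an unadjusted p below 0.05 there were 4, Il2rg, Il7r, Il21r and Il4ra. Such p-values were common over all genes, as Il4ra, with the largest of the 4, ranked 2855 by p among the 15197 genes tested. DESeq2 called 1 of the 10, with 1658 calls over all genes, and limma-voom 0, with 1075 calls over all genes. At 72 h 4 of 10 passed, where 36.4% of all genes did. Il12rb2, Il2rb and Il7r were lower in ko cells (19.5% of all genes were) and Il18r1 was higher (16.9% of all genes were). That share of the receptor genes is near the background. The median size of their 72 h differences, whatever the sign, was 0.11 on the log2 scale, against 0.24 for all genes. CPM ranges of ko and wt cells were apart for 2 of the 10 at 48 h (Il2ra and Il2rg) and for 4 at 72 h (Il2rb, Il2rg, Il7r and Il12rb2), with ko lower each time. Over all genes the ranges were apart for 14.5% and 35.1%.

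**Figure D3:**
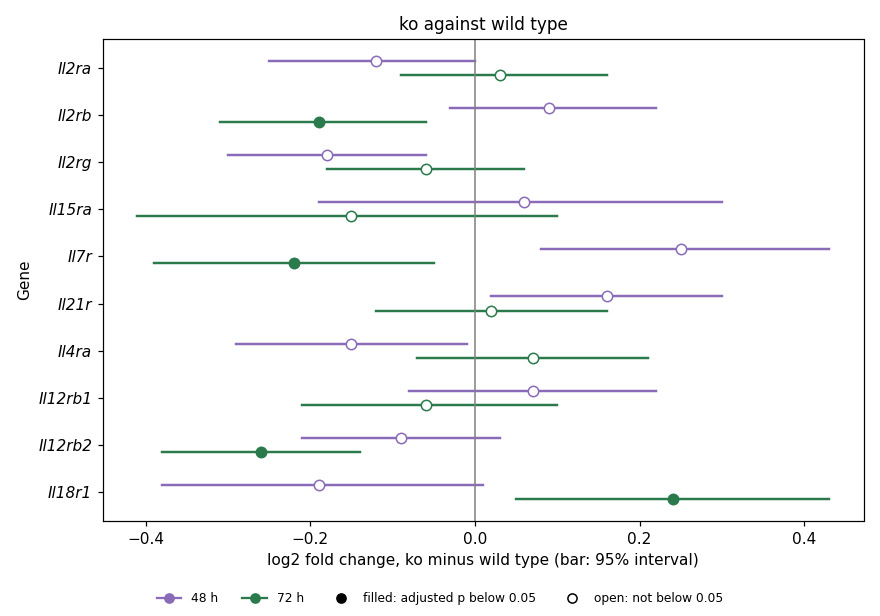
Log2 fold change of each receptor gene, ko minus wt, at 48 h and 72 h with 95% intervals from the edgeR fit; filled points have an adjusted p below 0.05. No point is filled at 48 h, and at 72 h Il2rb, Il7r and Il12rb2 are filled below 0 and Il18r1 above 0.

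From 48 h to 72 h in wt cells 7 of the 10 changed, where 63.6% of all genes did. Il7r, Il12rb2, Il18r1 and Il2rg rose (33.6% of all genes did), and Il2ra, Il4ra and Il15ra fell (29.9% did). In ko cells 9 of 10 changed, where 68.0% of all genes did, with the same 4 higher (34.4% of all genes) and Il15ra, Il2ra, Il2rb, Il12rb1 and Il4ra lower (33.6%). The median size of the members' changes was 0.36 in wt and 0.34 in ko cells on the log2 scale, below the 0.45 and 0.52 of all genes. Whether the ko-to-wt difference was itself another at 72 h than at 48 h was asked with the interaction term. It passed for 1 of the 10, Il7r, with a negative value. Of all genes 5.61% passed, 2.08% with a positive and 3.53% with a negative value. CPM ranges of the times were apart for 7 of the 10 in wt cells and 6 in ko cells, where they were apart for 57.7% and 58.6% of all genes. The genotype and time comparisons share libraries, so their values are set side by side and not counted as separate evidence.

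**Figure D4:**
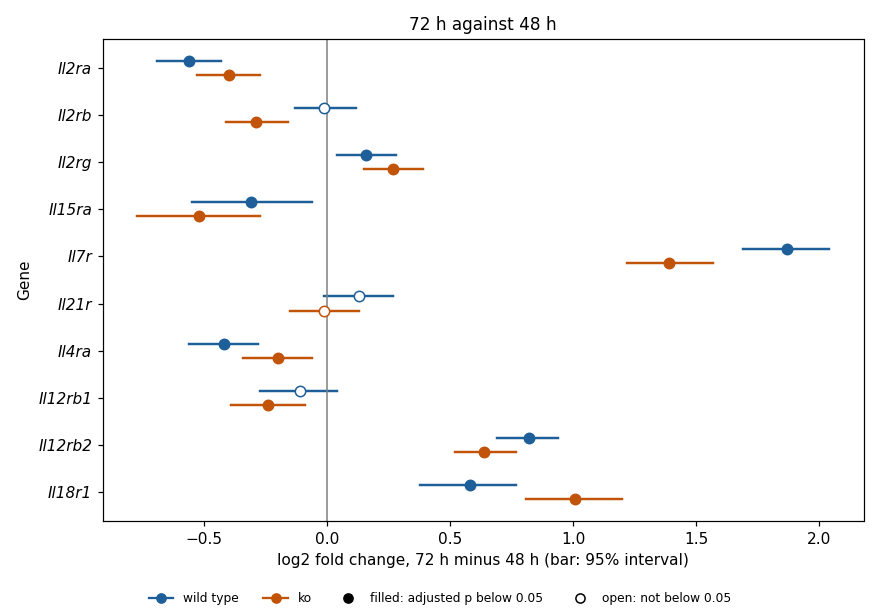
Log2 fold change of each receptor gene, 72 h minus 48 h, in wt and ko cells with 95% intervals from the edgeR fit; filled points have an adjusted p below 0.05. Il7r stands farthest to the right at 1.87 in wt and 1.39 in ko cells, and Il2ra, Il15ra and Il4ra lie below 0 in both genotypes.

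Of the IL-2 and IL-15 receptor chains, the affinity chain Il2ra (chr2:11642807-11693193, plus strand, GRCm38) fell with time in both genotypes, and the beta chain Il2rb was lower in ko than in wt cells at 72 h. Il2ra stood at 1257, 1216, 1227 and 1236 CPM in the 4 wt libraries at 48 h and at 902.8, 876.0, 854.4 and 785.8 CPM at 72 h. The ko libraries stood at 1092, 1026, 1143 and 1160 CPM at 48 h and 873.7, 860.6, 716.4 and 756.9 CPM at 72 h. Every 72 h library lay below every 48 h library of its genotype. The fitted fall was 0.680-fold in wt cells (log2 fold change -0.56, SE 0.06, adjusted p = 3.12e-08, edgeR) and 0.759-fold in ko cells (-0.40, SE 0.06, adjusted p = 4.58e-06). At 48 h all ko libraries lay below all wt libraries in CPM, yet the fitted difference missed the threshold (-0.12, SE 0.06, adjusted p = 0.247, edgeR). At 72 h the genotypes overlapped, and the difference was 0.03 with a 95% interval of -0.09 to 0.16 (-0.09 with library-size scaling).

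Il2rb (chr15:78479256-78495271, minus strand), the chain that IL-2 and IL-15 signal through, did not pass the test of time in wt cells. Its 48 h libraries stood at 998.3, 1054, 1109 and 1044 CPM and its 72 h libraries at 1162, 1027, 1126 and 957.2 CPM, which overlap (log2 fold change -0.01, 95% interval -0.13 to 0.12). The ko libraries stood at 1039, 1082, 1172 and 1086 CPM at 48 h and at 845.2, 871.2, 807.3 and 906.8 CPM at 72 h. All ko libraries at 72 h lay below all of the wt libraries and all of the 48 h libraries. Il2rb fell 0.819-fold with time in ko cells (-0.29, SE 0.06, adjusted p = 1.97e-04, edgeR), and at 72 h it was 0.878-fold the wt level (-0.19, SE 0.06, adjusted p = 0.0178). The difference between the genotypes' changes, -0.28 (SE 0.09), missed the threshold narrowly (adjusted p = 0.0530, edgeR). That call passed with library-size scaling (adjusted p = 0.00885), DESeq2 (0.0282), limma-voom (0.0440) and a filter of at least 1 CPM in 4 libraries (0.0409), and with 1 library left out (ko 48 h replicate 1, 0.0496; ko 48 h replicate 4, 0.0308; wt 72 h replicate 4, 0.0225; ko 72 h replicate 4, 0.0448). The 72 h call between genotypes was lost without wt 72 h replicate 1 (adjusted p = 0.0806) or ko 72 h replicate 3 (0.0976) and with exon length offsets (0.0607).

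Per kilobase of exon, Il2ra stood at 0.883 ± 0.0481 of the Il2rb level in wt cells at 48 h and at 0.603 ± 0.0320 at 72 h (SD, n = 4 each). In ko cells the ratio was 0.759 ± 0.0435 at 48 h and 0.703 ± 0.0683 at 72 h. The wt ratios ran from 0.831 to 0.945 at 48 h and from 0.570 to 0.641 at 72 h, with no overlap, whereas the ko ranges of 0.712 to 0.802 and 0.627 to 0.776 overlapped. These ratios were not tested.

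Il2rg (chrX:101264378-101268255, minus strand), the common gamma chain, rose a little with time in both genotypes. In wt cells it went from 88.39, 88.85, 88.45 and 86.31 CPM at 48 h to 107.4, 94.53, 104.6 and 93.14 CPM at 72 h. The ko libraries went from 68.01, 74.56, 76.64 and 85.32 CPM to 88.38, 91.67, 83.52 and 87.68 CPM, where 1 library at 72 h lay below the highest at 48 h. The rise was 1.11-fold in wt (0.16, SE 0.06, adjusted p = 0.0226, edgeR) and 1.21-fold in ko cells (0.27, SE 0.06, adjusted p = 2.18e-04). The wt call was lost with no filter on low counts (adjusted p = 0.227) and without wt 48 h replicate 4 (0.0593), ko 48 h replicate 2 (0.0587), wt 72 h replicate 1 (0.0907), wt 72 h replicate 3 (0.0503) or ko 72 h replicate 3 (0.0526). At both times Il2rg CPM in every ko library was lower than in every wt library. The fitted difference was -0.18 at 48 h (SE 0.06, adjusted p = 0.0667, edgeR) and -0.06 at 72 h (adjusted p = 0.466). At 48 h it passed with median-ratio scaling (adjusted p = 0.0454), DESeq2 (0.0116) and exon length offsets (0.0417), and with ko 48 h replicate 4 (-0.22, 0.0169) or ko 72 h replicate 3 (0.0381) left out. At 72 h it passed with library-size scaling (-0.19, adjusted p = 0.0275). Of the 2387 exon bases of Il2rg, 728 are shared with Gm20489 on the same strand, so its counts are uncertain.

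Il15ra, the affinity chain for the IL-15 in the medium, was the lowest of the 10 in every group. It begins 12096 bases past the end of Il2ra on the same strand (chr2:11705290-11734317). Its 48 h libraries held 10.4 to 12.1 CPM in wt cells and 9.86 to 13.5 CPM in ko cells, and its 72 h libraries 8.48 to 9.96 and 5.85 to 9.04 CPM. It fell with time in both genotypes, 0.808-fold in wt (-0.31, SE 0.12, adjusted p = 0.0285, edgeR) and 0.699-fold in ko cells (-0.52, SE 0.12, adjusted p = 5.77e-04). The wt call was lost with exon length offsets (adjusted p = 0.141) and without wt 48 h replicate 1 (0.0726), wt 48 h replicate 3 (0.0745), wt 72 h replicate 3 (0.0903) or wt 72 h replicate 4 (0.0526). The genotypes overlapped at both times, with differences of 0.06 (95% interval -0.19 to 0.30) at 48 h and -0.15 (-0.41 to 0.10) at 72 h.

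Il7r (chr15:9505788-9530176, minus strand), the receptor for the survival cytokine IL-7, had the largest change with time of the 10 genes, and it was smaller in ko cells. In wt cells it rose from 39.90, 48.49, 48.21 and 46.35 CPM to 166.0, 168.6, 165.9 and 179.4 CPM, a fitted 3.65-fold (1.87, SE 0.09, adjusted p = 3.44e-15, edgeR). The ko libraries rose from 43.55, 62.79, 55.08 and 51.59 CPM to 132.9, 127.9, 136.9 and 136.4 CPM, a fitted 2.62-fold (1.39, SE 0.08, adjusted p = 2.90e-13). All libraries at 72 h were above all at 48 h, and at 72 h all ko libraries were below all wt libraries, while at 48 h the genotypes overlapped.

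The difference between the rises was -0.48 on the log2 scale (95% interval -0.72 to -0.23, SE 0.12, adjusted p = 0.0183, edgeR). It was lost without ko 48 h replicate 2, the library with the highest Il7r level at 48 h (-0.35, adjusted p = 0.0567), and passed under the other 24 alternatives run for it. At 72 h Il7r in ko cells was 0.857-fold the wt level (-0.22, SE 0.08, adjusted p = 0.0360, edgeR). That call was lost with exon length offsets (-0.16, adjusted p = 0.130) and without wt 72 h replicate 2 (0.0647), wt 72 h replicate 4 (0.0919), ko 72 h replicate 1 (0.0692), replicate 2 (0.0990), replicate 3 (0.0590) or replicate 4 (0.0531), with differences from -0.23 to -0.18. At 48 h the difference was 0.25 in the other direction (SE 0.08) and missed the threshold (adjusted p = 0.0668, edgeR). It passed with no filter (0.25, adjusted p = 0.0209) and with ko 48 h replicate 1 (0.33, 0.0209), ko 48 h replicate 4 (0.29, 0.0330) or wt 72 h replicate 4 (0.25, 0.0472) left out.

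Il4ra and Il21r lie next to each other on chromosome 7 (chr7:125552120-125579474 and chr7:125603429-125633570, both on the plus strand, 23954 bases apart), and behaved differently with time. Il4ra, which binds IL-4 and, with another partner, IL-13, fell in both genotypes. It went from 246.0, 231.0, 248.9 and 250.1 CPM to 195.4, 186.9, 193.2 and 169.3 CPM in wt cells and from 211.1, 182.3, 220.2 and 246.3 CPM to 170.4, 181.1, 168.7 and 194.1 CPM in ko cells. The wt groups did not overlap and the ko groups did. The fall was 0.749-fold in wt (-0.42, SE 0.07, adjusted p = 7.31e-06, edgeR) and 0.870-fold in ko cells (-0.20, SE 0.07, adjusted p = 0.0108), the latter lost with exon length offsets (-0.10, adjusted p = 0.133). The test of the difference between these falls gave 0.22 (SE 0.09, adjusted p = 0.187). Between genotypes Il4ra differed by -0.15 at 48 h (adjusted p = 0.184), which passed without ko 48 h replicate 4 (-0.20, adjusted p = 0.0433), and by 0.07 at 72 h (95% interval -0.07 to 0.21). Of its 6002 exon bases, 571 overlap Gm44876 on the opposite strand, and whether the counting used strand is not given in the sources used here.

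Il21r, the receptor for the T cell cytokine IL-21, passed the test in no comparison. Its libraries ran from 136.8 to 152.1 CPM in wt and 143.9 to 185.2 CPM in ko cells at 48 h, and from 147.4 to 177.8 and 139.2 to 164.5 CPM at 72 h, and the groups overlapped in each comparison. With time it changed by 0.13 in wt (95% interval -0.01 to 0.27) and by -0.01 in ko cells (-0.15 to 0.13). With exon length offsets both were positive and passed, 0.29 in wt (adjusted p = 6.54e-04, edgeR) and 0.16 in ko cells (adjusted p = 0.0352). The wt change also passed without ko 48 h replicate 4 and wt 72 h replicate 4 together (0.16, adjusted p = 0.0237). These offsets moved the median change of all genes from 0.05 to 0.11 in wt and from 0.03 to 0.09 in ko cells.

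The 2 chains of the IL-12 receptor went separate ways. Il12rb2 (chr6:67291318-67376188, minus strand), the chain that carries the STAT4 signal, rose with time and was lower in ko cells at 72 h. In wt cells it went from 210.7, 237.6, 245.1 and 227.2 CPM at 48 h to 444.8, 414.1, 411.9 and 380.0 CPM at 72 h. The ko libraries went from 190.9, 219.5, 221.6 and 212.9 CPM to 314.5, 316.1, 308.1 and 322.9 CPM. Every 72 h library was above every 48 h library, and at 72 h the highest ko library stood at 322.9 CPM, below the lowest wt library at 380.0 CPM. The rise was 1.76-fold in wt (0.82, SE 0.06, adjusted p = 1.89e-11, edgeR) and 1.56-fold in ko cells (0.64, SE 0.06, adjusted p = 9.39e-10), and the difference between them missed the threshold (-0.17, SE 0.09, adjusted p = 0.252).

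At 72 h Il12rb2 in ko cells was 0.835-fold the wt level (-0.26, SE 0.06, adjusted p = 0.00150, edgeR), which passed under all 26 alternatives run. At 48 h the difference was -0.09 (SE 0.06, adjusted p = 0.408), with overlapping groups. Il12rb2 shares 1519 of its 3794 exon bases with Serbp1 on the opposite strand, a gene of higher level. Serbp1 fell with time, by 0.59 in wt and 0.56 in ko cells on the log2 scale, opposite to Il12rb2. Between genotypes at 72 h Serbp1 differed by -0.04 (SE 0.05, adjusted p = 0.627, edgeR). In CPM it was lower in every ko library than in every wt library at 72 h, with means of 809.4 and 906.4 CPM. The part of the shared bases in the Il12rb2 values was not tested, so its counts are uncertain.

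Il12rb1 (chr8:70808449-70821424, plus strand), which the IL-12 and IL-23 receptors share, did not pass the test of time in wt cells, with 81.69 to 90.44 CPM at 48 h and 75.50 to 83.37 CPM at 72 h (-0.11, 95% interval -0.27 to 0.04). In ko cells it fell 0.845-fold, from 77.05 to 102.7 CPM at 48 h to 63.12 to 79.27 CPM at 72 h (-0.24, SE 0.07, adjusted p = 0.00542, edgeR), and the ranges overlapped. That call was lost with exon length offsets (-0.08, adjusted p = 0.346). The difference between the genotypes' changes with time did not pass (-0.13, SE 0.10, adjusted p = 0.532, edgeR). Between genotypes it differed by 0.07 at 48 h (95% interval -0.08 to 0.22) and by -0.06 at 72 h (-0.21 to 0.10). Per kilobase of exon the ratio of Il12rb2 to Il12rb1 was 2.95 ± 0.148 in wt cells at 48 h and 5.62 ± 0.379 at 72 h, and 2.66 ± 0.346 and 4.90 ± 0.404 in ko cells (SD, n = 4 each). In both genotypes all 4 ratios at 72 h lay above all 4 at 48 h. These ratios were not tested and are as uncertain as the counts of Il12rb2.

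Il18r1 (chr1:40465552-40500854, plus strand), the IL-18 binding chain, rose with time in both genotypes. It went from 32.49, 28.96, 24.84 and 32.36 CPM to 46.08, 44.60, 43.40 and 46.04 CPM in wt cells, a fitted 1.49-fold (0.58, SE 0.09, adjusted p = 7.83e-06, edgeR). In ko cells it went from 25.49, 21.41, 24.00 and 30.99 CPM to 54.01, 49.12, 48.99 and 43.22 CPM, a fitted 2.01-fold (1.01, SE 0.09, adjusted p = 8.72e-10). No 72 h library overlapped the 48 h libraries, and the test of the difference between the rises gave 0.43 (SE 0.13), which narrowly missed the threshold (adjusted p = 0.0539, edgeR). It passed with median-ratio scaling (adjusted p = 0.0467), DESeq2 (0.0233), no filter (0.0136) and exon length offsets (0.0236), and with wt 48 h replicate 3 (0.0271), ko 48 h replicate 4 (0.0127), wt 72 h replicate 4 (0.0412) or ko 72 h replicate 4 (0.0331) left out.

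At 72 h Il18r1 was higher in ko cells by 1.18-fold (0.24, SE 0.09, adjusted p = 0.0415, edgeR), although ko replicate 4, at 43.22 CPM, lay below all wt libraries and the other 3 above them. That call was lost with library-size scaling (0.12, adjusted p = 0.351) and without wt 48 h replicate 2 (0.0504), wt 72 h replicate 1 (0.0655), replicate 2 (0.0749) or replicate 3 (0.117), or ko 72 h replicate 1 (0.147), replicate 2 (0.0715) or replicate 3 (0.0661). At 48 h the difference was -0.19 (SE 0.09, adjusted p = 0.246), which passed without ko 48 h replicate 4 (-0.27, adjusted p = 0.0496). Its partner Il18rap differed by 0.16 at 48 h and by 0.04 at 72 h (adjusted p = 0.237 and 0.699) and, as Il18r1 did, rose with time, by 1.14 in wt and 1.03 in ko cells. Il18r1 and Batf3 are both on chromosome 1, 150597 kilobases apart, and sequence carried with the ko allele was not tested.

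**Figure D5:**
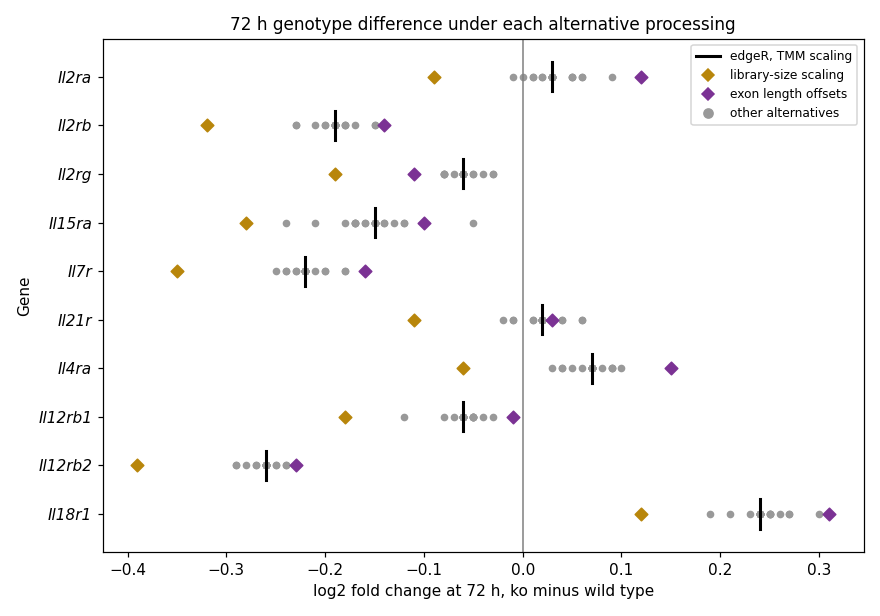
Log2 fold change of each receptor gene at 72 h, ko minus wt, in the edgeR fit with TMM scaling (black line) and under each of 26 alternatives (points, with library-size scaling and exon length offsets as diamonds). Il2rb, Il7r and Il12rb2 stay below 0 and Il18r1 above 0 in all of them, and library-size scaling lies at the left of every gene.

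Left without ko 48 h replicate 4, the fit called 4 of the 10 receptor genes at 48 h, Il7r higher and Il2rg, Il4ra and Il18r1 lower in ko cells. Calls over all genes also went up in that fit, from 1075 to 1955, and to 2552 without wt 72 h replicate 4 as well. Without both libraries, the same 4 passed (adjusted p = 0.0193, 0.00862, 0.0225 and 0.0325). At 72 h the number called dropped from 4 to 2 without wt 72 h replicate 1 or replicate 2 or ko 72 h replicate 1 or replicate 2, and to 1, Il12rb2, without ko 72 h replicate 3. Calls over all genes also went down in these fits, from 5526 to 4759, 4941, 5052, 4958 and 4534, in the same order.

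Over the 16 libraries some pairs of receptor genes moved together and some in opposite directions. Il7r and Il12rb2 had a Pearson correlation of log2 CPM of 0.946 with each other, Il2ra and Il4ra one of 0.894, and Il2ra and Il7r one of -0.917. Others were close to neither pattern, with 0.216 for Il21r and Il7r, -0.090 for Il21r and Il2ra, and 0.045 for Il2rb and Il2rg. These values describe libraries that share 4 groups and are set largely by the change with time. Among 9283 other genes of at least 3 on the average log2 CPM scale, the patterns most like Il7r were those of Kit (0.995), the stem cell factor receptor, and Vldlr (0.994), a lipoprotein receptor. Such neighbours are many, as 991 genes exceeded 0.9 for Il7r, 1505 for Il2ra and 583 for Il12rb2. Nearest to Il2ra were Hsph1 (0.988), a heat shock protein, and Hmga1 (0.987), a chromatin protein. Nearest to Il12rb2 were Plxnd1 (0.987), a semaphorin receptor, and Tgfbr2 (0.984), a TGF-beta receptor chain. Il18r1 was nearest to Smyd3 (0.968) and Uhrf2 (0.967), and Il4ra to Sec31a (0.960) and Cish (0.958), a STAT5 target that feeds back on the receptors. The nearest pairs for the rest were Ago2 (0.959) and Wnk1 (0.956) for Il2rg, Elmo2 (0.936) and Dusp5 (0.927) for Il2rb, and Edem2 (0.934) and Pofut2 (0.907) for Il15ra. Il12rb1 was nearest to Ganab (0.931) and Rangap1 (0.920), and Il21r, with the weakest likeness, to Washc1 (0.880) and Rela (0.866). By Spearman correlation the nearest genes were often others, such as Zbtb45 (0.929) for Il2rb and Ddx58 (0.968) for Il12rb2.

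The counts for the lists that follow stand against a background over all tested genes of 4.41% called upward and 2.66% called downward in ko cells for 48 h, and 16.9% upward and 19.5% downward for 72 h. Of 2 tested genes for chains related to the gamma chain family, Crlf2, the receptor chain for TSLP, was higher in ko cells at 72 h (0.38, SE 0.10, adjusted p = 0.00380, edgeR). Of 13 tested receptors of the IL-12, IL-6, IL-18 and related groups, ko cells had 1 higher at 48 h and none lower, then 4 higher and 3 lower at 72 h. The one at 48 h was Ifngr1, a chain of the interferon gamma receptor (0.33, SE 0.07, adjusted p = 0.00373, edgeR). At 72 h Il1r2, the decoy receptor for IL-1, was higher (0.81, SE 0.20), while the IL-33 receptor Il1rl1 (-1.64, SE 0.38), the IL-10 receptor chain Il10ra (-0.34, SE 0.07) and the accessory chain Il1rap (-0.34, SE 0.12) were lower. Il1rl1 was low, at 0.249 CPM in ko and 0.871 CPM in wt cells.

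The cells held few reads of most ligands of these receptors. Of 15 ligand genes 9 passed the filter on low counts, and ko cells had 2 of them higher and none lower at 48 h, then 2 higher and 2 lower at 72 h. Il15 held at most 5 counts and Il7 at most 7 counts in any library, and Il12b was at 0 in all 16. Il2 averaged 8.37 ± 2.84 CPM in wt and 6.67 ± 2.03 CPM in ko cells at 48 h and 1.27 ± 0.321 and 1.21 ± 0.679 CPM at 72 h (SD, n = 4 each). It fell with time in both, by 2.75 in wt and 2.38 in ko cells on the log2 scale (adjusted p = 3.04e-07 and 1.89e-06, edgeR). The genotypes differed in Il2 by -0.30 at 48 h (adjusted p = 0.573). Il21, the ligand of Il21r, was higher in ko cells at 72 h from a level near 0, 0.517 CPM against 0.0492 CPM, or 5 to 27 counts a library against 0 to 4 (3.48, SE 0.70, adjusted p = 4.09e-04, edgeR). Il13, a ligand that acts through Il4ra, was lower in ko cells at 72 h, 1.19 CPM against 8.48 CPM (-2.70, SE 0.20). Ebi3, a subunit of IL-27, was lower (-0.84, SE 0.14) and Il23a, a subunit of IL-23, higher (0.80, SE 0.16).

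Of 11 genes for JAK kinases and STAT factors, ko cells had none higher and 1 lower at 48 h, then 1 higher and 4 lower at 72 h. The one at 48 h was Stat4, the factor used by the IL-12 receptor, which was lower at both times (-0.22 and -0.18, SE 0.06 each, adjusted p = 0.0179 and 0.0141, edgeR). Among the lower ones at 72 h were Stat6 (-0.27, SE 0.06), which IL-4 uses, Stat4 and Tyk2 (-0.20, SE 0.07), a kinase of the IL-12 receptor. Stat5b, a factor used by IL-2, IL-15 and IL-7, was the higher one (0.19, SE 0.06, adjusted p = 0.0158). Stat5a stood at 0.19 (adjusted p = 0.114), Jak1 at 0.07 (0.394), Jak2 at 0.12 (0.161) and Jak3, the kinase bound to the common gamma chain, at 0.28 (0.0638, edgeR). With time 7 of the 11 rose and 0 fell in wt cells, where 33.6% of all genes rose and 29.9% fell. In ko cells 7 rose and 1 fell, where 34.4% of all genes rose and 33.6% fell. Jak3 rose in both (0.65 and 0.70, SE 0.12 each), as did Jak1 (0.52 and 0.64) and Stat4 (0.32 and 0.36).

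Of 11 genes of the pathway from the IL-18 receptor to NF-kappaB, ko cells had 1 higher and none lower at 48 h, then 1 higher and 5 lower at 72 h. Irak2, a kinase below MyD88, was the higher one at both times (0.40, SE 0.12, adjusted p = 0.0409 and 0.57, SE 0.11, adjusted p = 3.82e-04, edgeR). Among the lower ones were Nfkb1 (-0.47, SE 0.07), an NF-kappaB subunit, Ikbkb (-0.36, SE 0.08), the kinase that frees NF-kappaB, and Irak4 (-0.30, SE 0.09).

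Of 20 feedback inhibitors and targets of these receptors, ko cells had 3 higher and 2 lower at 48 h, then 8 higher and 6 lower at 72 h. Socs3, an inhibitor of JAK signalling, averaged 61.2 CPM in ko against 24.5 CPM in wt cells at 72 h (1.45, SE 0.14, adjusted p = 1.93e-07, edgeR). The killing genes Prf1 (1.16, SE 0.09) and Gzmb (0.43, SE 0.06) were higher. Ifng, the classic product of IL-12 and IL-18 signalling (-1.05, SE 0.22), and Lta, lymphotoxin alpha (-0.80, SE 0.14), were lower, as was Ccnd2, a cyclin (-0.32, SE 0.05). Of 18 genes for transcription factors known to act on receptor genes, ko cells had 1 higher and 3 lower at 48 h, then 2 higher and 10 lower at 72 h, where 16.9% and 19.5% of all genes were so called. Klf2, a factor of resting T cells, was higher at 72 h (0.77, SE 0.15). Gata3 (-0.91, SE 0.13), Nfatc1 (-0.52, SE 0.07), Rel (-0.49, SE 0.07), Ets1 (-0.41, SE 0.07) and Nfatc2 (-0.33, SE 0.09) were lower.

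Markers of some other cell types moved between genotypes in the same libraries. Of 4 tested gamma delta T cell, 3 regulatory T cell and 3 dendritic cell markers, none was called between genotypes at either time. Of 9 tested markers of natural killer cells, which carry Il2rb and Il18r1 at high levels, ko cells had 4 higher and none lower at 48 h, then 6 higher and 1 lower at 72 h. Their summed level was 56.1 to 61.3 CPM in wt and 60.9 to 73.4 CPM in ko cells at 48 h, and 66.9 to 74.5 and 65.6 to 72.6 CPM at 72 h. The largest part of that sum is Eomes, which CD8 T cells also express and which was lower in ko cells at 72 h (33.9 CPM against 50.8 CPM). The lectin receptor genes Klre1 (18.4 CPM against 9.80 CPM) and Klrb1c (6.92 CPM against 4.38 CPM) and the adaptor gene Tyrobp (3.03 CPM against 1.36 CPM) were higher there, and Ncr1, which defines these cells, reached at most 23 counts in any library.

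Of 4 tested B cell markers 1, Ighm, was higher at each time (0.28 and 0.43), while Ms4a1 held at most 6 counts in any library. The summed B cell list stood at 247.2 to 258.1 CPM in wt and 285.5 to 318.6 CPM in ko cells at 48 h, and at 224.1 to 293.8 and 304.4 to 335.5 CPM at 72 h. Of 3 tested plasma cell markers 2 were higher at 72 h, Sdc1 (0.48, SE 0.12) and Jchain (2.01, SE 0.56), the latter at 1.05 CPM against 0.276 CPM. That list, mostly Xbp1, summed to 254.4 to 266.3 CPM in wt and 228.0 to 244.2 CPM in ko cells at 48 h, and to 208.1 to 220.9 and 196.6 to 204.7 CPM at 72 h.

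Of 12 macrophage, monocyte and granulocyte markers 2 passed the filter on low counts. Fcgr3, an Fc receptor chain, was higher in ko cells at both times, 3.46 CPM against 0.227 CPM and 8.92 CPM against 0.675 CPM. Cd68 was higher at 72 h, 9.37 CPM against 6.29 CPM. The list summed to 1.55 to 2.38 CPM in wt and 4.18 to 6.25 CPM in ko cells at 48 h, and to 6.66 to 7.90 and 17.4 to 22.3 CPM at 72 h. Its members Adgre1, S100a8 and S100a9 were at 0 in every library, as were Clec9a, Siglech and Cd209a of the 7 dendritic cell markers, a list that summed to 3.55 to 4.41 CPM in wt and 3.60 to 4.99 CPM in ko cells at 48 h, and to 5.13 to 5.99 and 4.01 to 5.47 CPM at 72 h.

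Of 8 CD8 T cell markers ko cells had 2 higher at 48 h, Cd3d (0.25) and Cd3g (0.31), then 3 higher at 72 h, these 2 (0.53 and 0.54) and Cd2 (0.21), and none lower. Of the CD4 T cell list Zbtb7b was higher at 48 h (0.31). Cd8a differed by 0.00 at 48 h and -0.05 at 72 h (SE 0.05 each). The part of these markers in the receptor values was not tested.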

How the data were processed

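Poly-A RNA was sequenced from 16 libraries of mouse CD8 T cells, made with a stranded kit from 100 ng of RNA per the labels' protocols. The submitters' processing notes name the build GRCm38 and the tools featureCounts, STAR 2.7 and bcl2fastq 2.2.0. The authors deposited raw read counts per gene. Which annotation release and strand setting the counting used is not given in the sources used here. Overlapping genes are therefore uncertain. Groups were taken from the sample titles. The receptor genes and all gene lists were chosen with earlier results of these data known.

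CPM was computed from column sums. A single model over the 4 groups of libraries was fitted in R 4.3.3 with edgeR 4.0.16. Genes passed filterByExpr (minimum count 10), TMM factors scaled the libraries, and tests were robust, two-sided quasi-likelihood F tests with Benjamini-Hochberg adjustment over 15197 genes and a threshold of 0.05. The fit was tested on simulated data. Of the identifiers 55154 were found in GENCODE M21, which gave positions and exon lengths. No pair of libraries agreed within sampling noise. The 10 receptor genes were named whatever their result. From each pathway list up to 4 genes past the threshold with the largest change at 72 h were named, then up to 2 past it at 48 h, and 8 fixed signalling genes. Some genes of these lists are not reported here. Results were recomputed with DESeq2 1.42.0 and limma-voom (limma 3.58.1), library-size or median-ratio scaling, other filters on low counts, a fit restricted to the compared groups, a replicate block, offsets that take out the trend with exon length library by library, and leaving out each library or both that stand apart. Limits from counts cover counting error only, since the reads carry no stated molecular identifiers.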

Additional observations from a re-analysis of the deposited data

Results flagged for a closer look

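The rise of Il7r from 48 h to 72 h differed between the genotypes. The interaction of genotype and time was -0.48 on the log2 scale (SE 0.12, adjusted p = 0.0183 over 15197 genes, edgeR quasi-likelihood test), with a rise of 1.87 in wt and 1.39 in ko cells. All 4 ko libraries at 72 h, from 127.9 to 136.9 CPM, lay below the wt libraries, from 165.9 to 179.4 CPM. At 48 h the groups overlapped, with 43.55 to 62.79 CPM in ko and 39.90 to 48.49 CPM in wt cells. Without ko 48 h replicate 2 the value was -0.35 (adjusted p = 0.0567). For the 10 receptor genes in the 4 groups, 40 sets of 4 libraries were searched for a lone library far from the rest, and 0 were found, where chance gives about 1 in 20.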

How the results depend on the processing

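Of the 10 receptor genes in 5 comparisons, each refitted under 26 alternatives (25 for the interaction, where a fit of only the groups compared is not possible), 1199 refitted values kept their direction and side of the threshold, 33 lost the call, 36 gained one and 22 changed sign. At 48 h the genes called numbered 1075, 1658 with DESeq2 (839 higher and 819 lower), 2552 without ko 48 h replicate 4 and wt 72 h replicate 4, and 507 to 1955 with single libraries left out. Receptor genes called at 48 h numbered 0, 1 with median-ratio scaling, DESeq2, no filter or exon length offsets, 4 without both libraries, and 0 to 4 with single libraries left out. At 72 h they numbered 4, 2 with exon length offsets, and 1 to 4 with single libraries left out. Over all genes the 72 h calls numbered 5526, 5074 with exon length offsets, and 4534 to 5930 with single libraries left out. The interaction called 853 genes, 1414 with library-size scaling, and 446 to 1056 with single libraries left out. Receptor genes called there numbered 1, 2 with median-ratio or library-size scaling, limma-voom, no filter, the filter of at least 1 CPM or exon length offsets, 3 with DESeq2 or without both libraries, and 0 to 3 with single libraries left out. The share of higher calls went from 62.3% to 48.3% at 48 h, from 46.4% to 23.5% at 72 h and from 37.0% to 12.9% in the interaction with library-size scaling, and to 50.6% at 48 h with DESeq2. The causes were not tested.

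The values that changed sign were all small. Between genotypes they were Il15ra at 48 h (-0.04 to 0.11 with single libraries left out), Il2ra at 72 h (-0.09 with library-size scaling, -0.01 to 0.09 with single libraries left out), Il4ra at 72 h (-0.06 with library-size scaling) and Il21r at 72 h (-0.11 with library-size scaling, -0.02 to 0.06 with single libraries left out, -0.01 without both libraries). With time in wt cells they were Il2rb (0.02 with library-size scaling, 0.00 with the filter of at least 1 CPM, 0.11 with exon length offsets, -0.04 to 0.03 with single libraries left out, 0.03 without both libraries) and Il12rb1 (0.01 with exon length offsets). With time in ko cells it was Il21r (0.16 with exon length offsets, -0.05 to 0.04 with single libraries left out, 0.04 without both libraries). None of these passed the threshold except Il21r with exon length offsets (adjusted p = 0.0352).

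No clear pairing of the samples by replicate number was seen, as same-numbered libraries deviated together with correlations from -0.250 to 0.271. Such a check on 4 libraries a group cannot exclude shared sources. With the replicate number as a block, 918 genes at 48 h, 5399 at 72 h, 9572 and 10255 with time in wt and ko cells and 709 in the interaction passed, and the receptor genes called numbered 0, 4, 7, 9 and 1, as without the block. TMM-scaled CPM moved 7 of 40 group levels by more than 1 SD, such as Il12rb2 in ko cells at 72 h from 315.4 to 331.9 CPM. Depth did not limit the 10 genes, whose lowest library held 201 counts.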
